A study of Homo sapiens with 16 samples.

Results

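HBEGF, FGF18, FGFR2 and SPRY1 are 4 genes of growth factor signalling, and their levels were followed in a human pancreatic adenocarcinoma cell line under a drug and under a gene knockdown. They were taken as every probe set annotated to 1 of these genes alone, which gave 7 of the 9554 probe sets in the deposited table and 4 of the 5250 genes tested. HBEGF, FGF18 and FGFR2 had 2 probe sets each and SPRY1 had 1. The genes were selected on their changes on these same arrays, so their differences between groups are given as a description, with no p-value, and support nothing further.

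The cells were AsPC-1, grown in RPMI medium with 10% FCS. Cells in the first experiment received 10 µM ICG-001 or its vehicle DMSO and were harvested after 6 h or after 24 h, with 3 arrays for each of the 4 groups. ICG-001 is known as an inhibitor of the interaction between β-catenin and the coactivator CBP. A second, separate experiment compared 20 nM CTNNB1 siRNA, which targets the β-catenin transcript, with 20 nM control siRNA, each introduced by lipofection and read at 48 h, with 2 arrays for each group. The labels call the arrays biological replicates and name no separate cultures or days, so p-values measure only the spread between these samples. No probe set for CTNNB1 alone was among those analysed, and the knockdown was therefore not checked on its target.

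Growth factors of the EGF and FGF families bind receptor tyrosine kinases, which signal through RAS to the kinase ERK and thence to transcription. HBEGF encodes a membrane-anchored EGF family ligand that is shed by metalloproteinases and binds EGFR and ERBB4. FGF18 encodes a secreted FGF ligand described as a β-catenin target in colorectal tumours, FGFR2 encodes a receptor for several FGFs, and SPRY1 encodes a Sprouty protein, an intracellular inhibitor that is itself induced by ERK signalling and damps it.

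Promoter windows of the 4 genes are shown because β-catenin, at which both treatments are aimed, reaches DNA through partner factors. Sequences are RefSeq records on GRCh38.p14, running from 250 bases before to 50 bases after each annotated start, 5′ to 3′ on the gene's strand, with capitals marking a motif match. HBEGF had 1 window at chr5:140346554-140346853 on the minus strand, FGF18 had 1 at chr5:171419397-171419696 on the plus strand, and SPRY1 had 2 on the plus strand at chr4:123396545-123396844 and chr4:123398136-123398435. FGFR2 had 5 windows, of which the 1 with a match is printed, at chr10:121531265-121531564 on the minus strand.
HBEGF: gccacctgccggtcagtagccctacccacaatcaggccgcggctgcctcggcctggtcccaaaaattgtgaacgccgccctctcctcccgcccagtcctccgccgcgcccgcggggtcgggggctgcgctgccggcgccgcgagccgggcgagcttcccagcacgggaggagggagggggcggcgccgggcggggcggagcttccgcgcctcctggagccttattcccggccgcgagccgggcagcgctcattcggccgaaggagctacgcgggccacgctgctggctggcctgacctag
FGF18: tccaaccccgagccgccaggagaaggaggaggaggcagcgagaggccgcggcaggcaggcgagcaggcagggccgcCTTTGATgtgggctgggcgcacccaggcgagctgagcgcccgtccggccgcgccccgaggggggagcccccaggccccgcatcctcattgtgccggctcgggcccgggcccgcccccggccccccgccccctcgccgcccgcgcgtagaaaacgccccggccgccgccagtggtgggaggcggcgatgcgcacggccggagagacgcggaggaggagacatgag
FGFR2: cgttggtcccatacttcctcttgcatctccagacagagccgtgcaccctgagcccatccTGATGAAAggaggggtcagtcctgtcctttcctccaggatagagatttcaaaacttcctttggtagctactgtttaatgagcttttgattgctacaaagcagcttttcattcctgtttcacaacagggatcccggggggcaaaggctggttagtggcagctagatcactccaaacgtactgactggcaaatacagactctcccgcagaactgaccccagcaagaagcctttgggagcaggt
SPRY1 first window: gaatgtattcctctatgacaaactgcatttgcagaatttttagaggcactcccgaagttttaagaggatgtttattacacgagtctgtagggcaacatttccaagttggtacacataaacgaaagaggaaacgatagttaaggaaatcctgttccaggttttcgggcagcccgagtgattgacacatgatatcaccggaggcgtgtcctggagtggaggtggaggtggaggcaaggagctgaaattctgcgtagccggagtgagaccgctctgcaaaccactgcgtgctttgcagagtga
SPRY1 second window: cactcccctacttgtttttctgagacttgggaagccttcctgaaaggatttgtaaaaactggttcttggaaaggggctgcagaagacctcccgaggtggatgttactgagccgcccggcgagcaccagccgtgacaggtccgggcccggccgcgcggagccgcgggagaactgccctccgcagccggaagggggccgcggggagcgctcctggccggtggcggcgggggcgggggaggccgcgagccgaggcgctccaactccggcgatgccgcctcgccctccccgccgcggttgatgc
The motifs searched on both strands were TCF/LEF (CTTTGAT), AP-1 (TGANTCA), CRE (TGACGTCA), the C/EBP-ATF composite (TGATGNAA), ETS (CCGGAAGT) and the E-box (CACGTG). The FGF18 window held a TCF/LEF match 174 bases before the start, a motif found in 2.62% of 35116 promoter windows of that length. The printed FGFR2 window held a C/EBP-ATF match 191 bases before its start, found in 3.62% of the windows. The HBEGF window and both SPRY1 windows held none of the 6 motifs, where AP-1 occurred in 7.71%, CRE in 1.85%, ETS in 4.14% and the E-box in 7.26% of all windows. With 6 motifs searched in every window, a match to any of them is more frequent than the rate of a single motif. These matches describe letters in the windows, and binding was not measured.

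Values are deposited intensities on a linear scale, and log2 changes were fitted to log2(intensity + 16) after quantile normalization of the 16 arrays. A ratio of printed intensities therefore differs from the fitted change beside it, and changes of low genes are understated. Median intensity ran over 20.6 to 28.6 on the drug experiment's arrays and over 12.7 to 13.0 on the siRNA arrays. The highest median was that of ICG-001 24 h replicate 2. Mean intensity was 163.7 to 178.9 on the ICG-001 arrays and 131.7 to 136.8 on the DMSO arrays. Quantile normalization gives all arrays 1 distribution, so the fitted changes do not keep this difference, whereas those with the deposited scaling do. Of 16 markers of epithelium and ductal adenocarcinoma 8 were measured, and the sum of their intensities was 13574 to 14223 with ICG-001 at 6 h, against 9454 to 9629 with DMSO. At 24 h the sum was 16103 to 16487 with ICG-001, against 7371 to 8161 with DMSO, and it was 3407 to 3537 with CTNNB1 siRNA, against 3750 to 4140 with control siRNA. Of 8 acinar markers only PRSS2 was measured, and 0 of 6 islet markers were. PRSS2 moved with the groups, reading 6446 to 6560.1 with ICG-001 at 6 h, against 5174 to 5381 with DMSO, and 7959 to 8418 with ICG-001 at 24 h, against 4662 to 5279 with DMSO. It read 1639 to 1677 with CTNNB1 siRNA, against 2034 to 2142 with control siRNA. Summed intensities over all arrays were 103 to 180.0 for 4 measured of 8 fibroblast markers, 5.41 to 30.7 for 2 of 6 endothelial markers and 4.07 to 31.7 for PTPRC, the 1 measured of 8 leukocyte markers. The part of these markers in the results was not tested. In RNA from whole cultures, fewer cells expressing a gene and less of its RNA per cell cannot be told apart.

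HBEGF was several-fold higher with ICG-001 at both times and slightly higher with CTNNB1 siRNA. Its brighter probe set, 203821_at, read 2684, 2482 and 2532 on the 3 arrays with ICG-001 at 6 h, against 487, 549 and 559.9 with DMSO. At 24 h it read 1598, 1544 and 1569.9 with ICG-001, against 592, 509 and 496 with DMSO. Every ICG-001 array thus lay above every DMSO array of its time. At 6 h the mean was 2566 ± 105 with ICG-001 and 532 ± 39.2 with DMSO (SD, n = 3 each), a ratio of 4.82. At 24 h it was 1571 ± 26.8 with ICG-001 and 533 ± 52.2 with DMSO (SD, n = 3 each), a ratio of 2.95. The fitted log2 change was 1.85 ± 0.07 (SE) at 6 h and 1.22 ± 0.07 at 24 h. With the deposited scaling kept, these were 2.24 and 1.54. The second HBEGF probe set, 38037_at, gave 2.17 ± 0.08 and 1.49 ± 0.08, in the same direction.

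In the siRNA experiment HBEGF read 610.4 and 589 with CTNNB1 siRNA, against 479 and 477 with control siRNA. These groups did not overlap, and means of 599.8 ± 14.9 with CTNNB1 siRNA and 478 ± 1.70 with control siRNA (SD, n = 2 each) gave a ratio of 1.26. The fitted change was 0.28 ± 0.08, and the second probe set gave 0.23 ± 0.10. Ordered by log2 level, HBEGF stood highest with ICG-001 at 6 h (11.03), followed by ICG-001 at 24 h (10.35) and CTNNB1 siRNA (9.44). DMSO at 6 h (9.17), control siRNA (9.16) and DMSO at 24 h (9.13) followed and did not differ beyond their spread at 203821_at. At 38037_at, by contrast, control siRNA stood above DMSO at 6 h (7.61) and DMSO at 24 h (7.51) without overlap. In deposited intensities, not normalized between the experiments, CTNNB1 siRNA overlapped with DMSO at 24 h at 203821_at. Here and for the other genes, such orders set groups of separate experiments side by side. Transfection, time and array intensity differ between the experiments. Effects of these on levels cannot be told apart from effects of treatment across the experiments.

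FGF18 was lower with ICG-001, most so at 24 h, and showed no separation under the knockdown. Its brighter probe set, 206987_x_at, read 44.7, 46.6 and 39.6 with ICG-001 at 6 h, against 74.0, 80.2 and 60.3 with DMSO. At 24 h the values were 33.8, 32.7 and 36.4 with ICG-001, against 90.3, 102 and 112 with DMSO. Each ICG-001 array was below each DMSO array of its time. The 6 h mean was 43.6 ± 3.62 with ICG-001 and 71.5 ± 10.2 with DMSO, a ratio of 0.61, and the 24 h mean was 34.3 ± 1.91 with ICG-001 and 102 ± 11.1 with DMSO, a ratio of 0.34 (SD, n = 3 each). The fitted log2 change was -0.55 ± 0.14 at 6 h and -1.28 ± 0.14 at 24 h. Its size depends on the number added before log2, with -1.69 at 24 h when 1 was added and -0.75 when 64 was. The second probe set, 211029_x_at, gave -0.54 ± 0.16 and -1.24 ± 0.16. The suffix _x_at marks probe sets whose probes may match other transcripts, and this holds for both FGF18 probe sets.

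With CTNNB1 siRNA FGF18 read 106 and 111, against 100.3 and 133 with control siRNA. The control arrays lay on either side of the knockdown arrays. The fitted change was -0.11 ± 0.17. It was 0.05 without control siRNA replicate 2 and -0.26 without control siRNA replicate 1. On the log2 scale FGF18 was highest with control siRNA (7.49) and CTNNB1 siRNA (7.38), which did not differ beyond their spread. DMSO at 24 h (6.69), DMSO at 6 h (6.30), ICG-001 at 6 h (5.74) and ICG-001 at 24 h (5.41) followed, each without overlap with the next. The second probe set gave the same order, with overlap between the 2 ICG-001 groups. In deposited intensities the siRNA groups overlapped with DMSO at 24 h.

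FGFR2 was lower with CTNNB1 siRNA and did not separate by drug. Its probe set 203638_s_at read 21.0 and 14.6 with CTNNB1 siRNA, against 69.7 and 78.0 with control siRNA. Both knockdown arrays lay well under both control arrays. FGFR2 averaged 17.8 ± 4.52 with CTNNB1 siRNA and 73.8 ± 5.87 with control siRNA (SD, n = 2 each), a ratio of 0.24. The fitted log2 change was -1.56 ± 0.25, and it was -2.00 with 1 added before log2 and -0.95 with 64. The second probe set, 211398_at, read 22.2 and 10.5 with CTNNB1 siRNA, against 33.7 and 30.1 with control siRNA. Its fitted change was -0.85 ± 0.26, or -0.59 with the deposited scaling. The suffix _s_at marks a probe set whose probes match several transcripts, so splice forms of the receptor were not told apart.

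In the drug experiment FGFR2 read 16.3, 8.42 and 6.93 with ICG-001 at 6 h, against 12.7, 15.9 and 19.6 with DMSO. At 24 h it read 9.19, 28.7 and 17.9 with ICG-001, against 18.5, 27.4 and 10.8 with DMSO. The groups overlapped at both times. These values lie close to the number added before log2, so a fall with the drug could show only in part. Fitted changes were -0.26 ± 0.21 at 6 h and -0.12 ± 0.21 at 24 h, and the second probe set gave -0.06 ± 0.21 and 0.02 ± 0.21. Leaving out 1 array at a time moved the 24 h change between -0.28 and 0.03. Only control siRNA (7.04 on the log2 scale) stood apart in the order of levels. The other groups, CTNNB1 siRNA (5.48), DMSO at 24 h (5.03), DMSO at 6 h (4.95), ICG-001 at 24 h (4.91) and ICG-001 at 6 h (4.69), each overlapped with the next.

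SPRY1 was lower in both experiments and at both drug times. Its only probe set, 212558_at, read 90.9, 102 and 82.3 with ICG-001 at 6 h, against 177, 186 and 159 with DMSO. At 24 h it read 228, 235 and 234 with ICG-001, against 410.3, 379 and 354 with DMSO. With CTNNB1 siRNA it read 122 and 131, against 220.2 and 260.02 with control siRNA. In each of the 3 comparisons the groups were fully separated. SPRY1 averaged 91.6 ± 9.68 with ICG-001 and 174 ± 13.8 with DMSO at 6 h, and 232 ± 3.69 with ICG-001 and 381 ± 28.4 with DMSO at 24 h (SD, n = 3 each). The means were 127 ± 6.24 with CTNNB1 siRNA and 240.1 ± 28.1 with control siRNA (SD, n = 2 each). The ratios of means were 0.53, 0.61 and 0.53. Fitted log2 changes were -0.95 ± 0.10 at 6 h, -0.93 ± 0.10 at 24 h and -0.75 ± 0.12 with CTNNB1 siRNA. With the deposited scaling they were -0.82, -0.68 and -0.84.

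**Figure D1:**
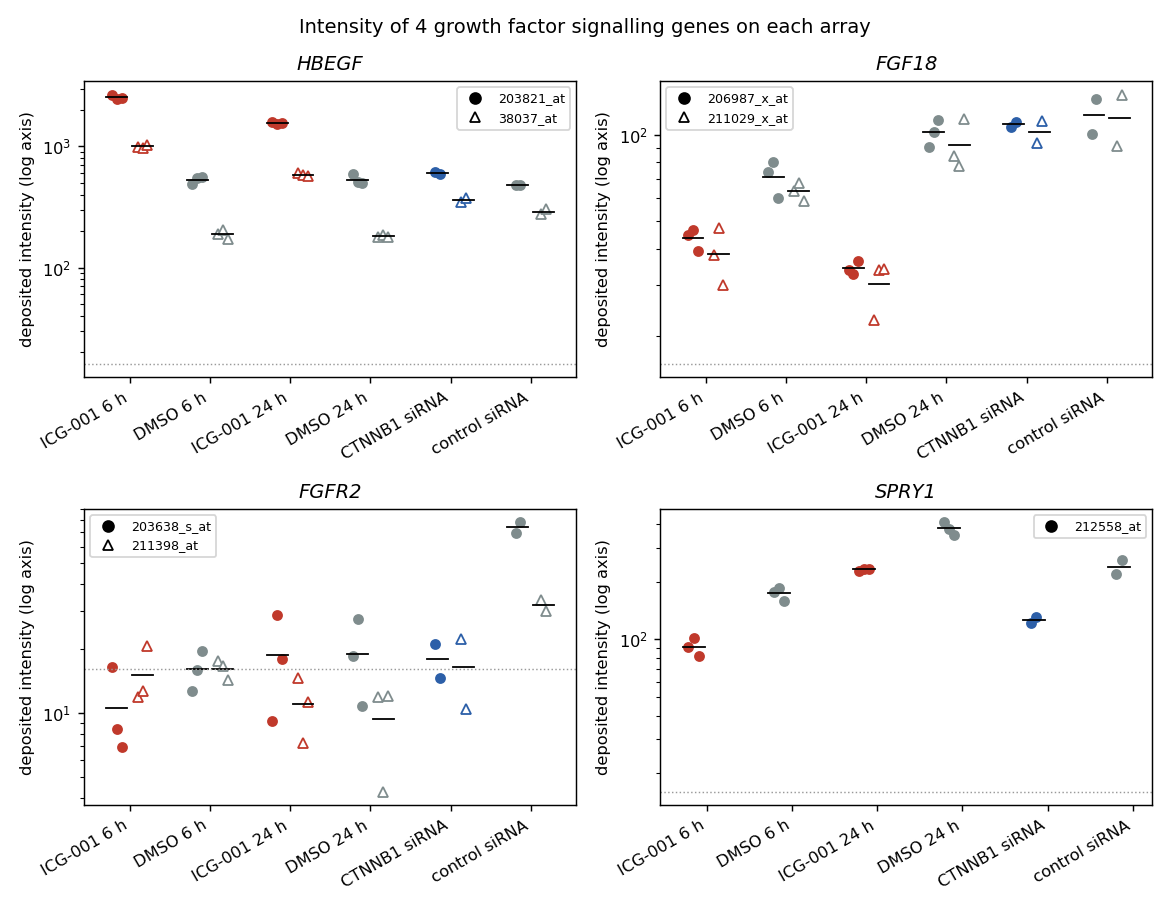
Deposited intensity (log axis) of HBEGF, FGF18, FGFR2 and SPRY1 on each of the 16 arrays, by group, with circles for the probe set used in the fit, triangles for the second one, short lines for group means and a dotted line at 16, the number added before log2. HBEGF at 203821_at is at least 1544 on all 6 ICG-001 arrays and at most 610.4 on the other 10, while FGFR2 at 203638_s_at reaches 69.7 and 78.0 on the 2 control siRNA arrays and at most 28.7 elsewhere.

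SPRY1 also differed between culture times in the vehicle alone. Its mean was 381 ± 28.4 in DMSO at 24 h and 174 ± 13.8 in DMSO at 6 h, a ratio of 2.19 and a log2 change of 1.16 ± 0.10. The corresponding difference between ICG-001 at 24 h and ICG-001 at 6 h was 1.17 ± 0.10, which put ICG-001 at 24 h above DMSO at 6 h. In log2 order SPRY1 was highest in DMSO at 24 h (8.65), followed by control siRNA (8.29), ICG-001 at 24 h (7.72), CTNNB1 siRNA (7.54), DMSO at 6 h (7.50) and ICG-001 at 6 h (6.55). Of these neighbours only CTNNB1 siRNA and DMSO at 6 h overlapped. In deposited intensities control siRNA overlapped with ICG-001 at 24 h, and CTNNB1 siRNA lay below DMSO at 6 h. FGF18 was also higher in DMSO at 24 h without overlap, by 0.39 ± 0.14, whereas HBEGF overlapped between the DMSO times, with a change of -0.05 ± 0.07. The FGFR2 probe sets disagreed, with 0.08 ± 0.21 and overlap at 203638_s_at, and -0.33 ± 0.21 without overlap at 211398_at.

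The difference of ICG-001 from DMSO was not the same at both times for HBEGF and FGF18. The change at 24 h minus that at 6 h was -0.63 ± 0.10 for HBEGF, which remained above DMSO at both times, and -0.73 ± 0.19 for FGF18, which lay further below DMSO at 24 h. It was 0.13 ± 0.29 for FGFR2 and 0.02 ± 0.14 for SPRY1. Between the 2 ICG-001 groups alone, 24 h minus 6 h, HBEGF differed by -0.68 ± 0.07, FGF18 by -0.33 ± 0.14 and FGFR2 by 0.21 ± 0.21.

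The siRNA and drug experiments shared no control arrays, so their changes can be set against each other. The siRNA change minus the 6 h drug change was -1.57 ± 0.11 (SE) for HBEGF, 0.45 ± 0.21 for FGF18, -1.30 ± 0.33 for FGFR2 and 0.20 ± 0.15 for SPRY1. Against the 24 h drug change the differences were -0.94 ± 0.11, 1.17 ± 0.21, -1.44 ± 0.33 and 0.18 ± 0.15, in the same order of genes. The smallest differences were thus those of SPRY1. Agent, dose and time differ between these experiments. The starting level of FGFR2 differs too. At 203638_s_at it averaged 16.05 with DMSO at 6 h and 18.9 with DMSO at 24 h, against 73.8 with control siRNA. From DMSO levels near the 16 added before log2, a fall with the drug could show only in part. The FGFR2 differences therefore do not compare the 2 treatments on equal terms.

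**Figure D2:**
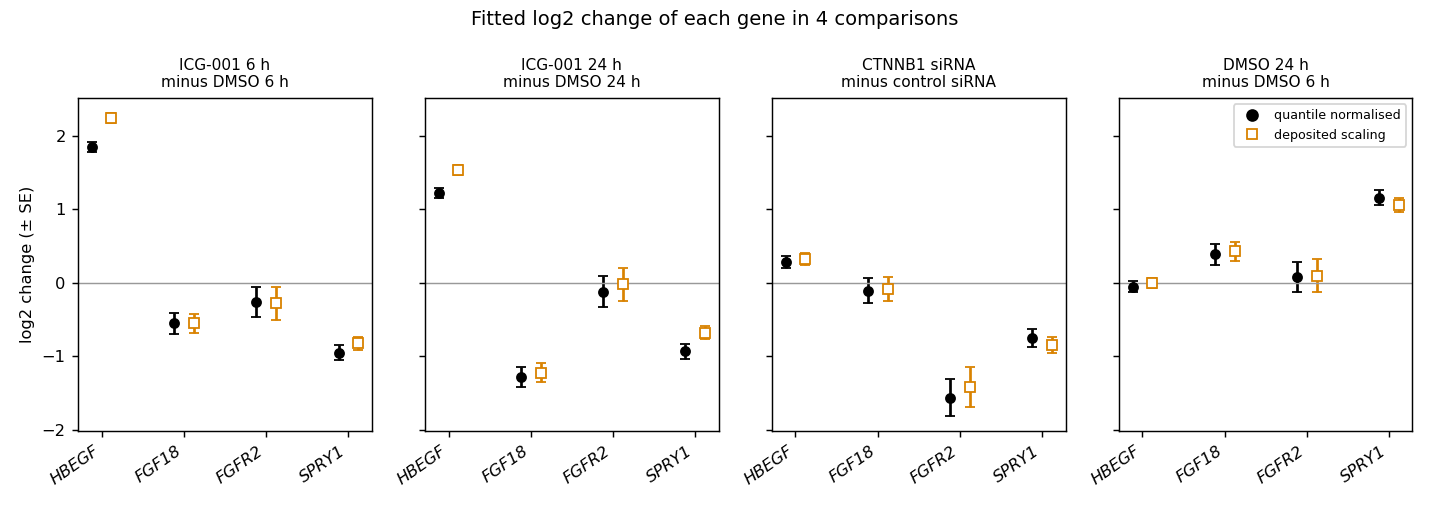
Fitted log2 change (± SE) of each gene for ICG-001 against DMSO at 6 h and 24 h, CTNNB1 siRNA against control siRNA, and DMSO at 24 h against DMSO at 6 h, after quantile normalization (circles) and with the deposited scaling (squares). HBEGF stands at 1.85 and 1.22 with the drug and 0.28 with the knockdown, and SPRY1 below 0 in all 3 treatment comparisons. FGFR2 stands at -1.56 with the knockdown. With the drug it stands at -0.26 and -0.12, from signal close to the number added before log2.

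At an adjusted p under 0.05, 3 of the 4 genes were past the threshold at 6 h, where 13.8% of all genes were, and HBEGF, FGF18 and SPRY1 were those 3. At 24 h the same 3 genes were past it, against 20.5% of all genes. With CTNNB1 siRNA the 3 were HBEGF, FGFR2 and SPRY1, against 12% of all genes. SPRY1 alone was past it between the DMSO times, against 8.63% of all genes, and HBEGF and FGF18 were past it for the difference between drug times, against 7.81%. All genes here are the 5250 tested, from probe sets with a coefficient of variation of at least 0.40 over these arrays. The shares are therefore not those of the whole genome. These counts use the brighter probe set of each gene. The second HBEGF probe set was not past the threshold with CTNNB1 siRNA, nor the second FGF18 probe set (-0.70 ± 0.23) for the difference between drug times. Since the genes were chosen on such changes, nothing is read from these counts. The pooled replicate SD on the log2 scale was 0.08 for HBEGF, 0.14 for FGF18, 0.25 for FGFR2 and 0.11 for SPRY1, so FGFR2 was measured least precisely.

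Over the 12 arrays of the drug experiment, 3936 genes of sufficient level were ranked by Pearson correlation with each of the 4 genes. The points share arrays and groups, and the values are a description. HBEGF was most alike to ULK1 (r = 0.997), an autophagy kinase, SESN2 (0.996), a stress-induced sestrin, and LONRF1 (0.994), and 95 genes exceeded 0.9. ULK1 differed from DMSO by 2.72 at 6 h and 1.87 at 24 h and SESN2 by 3.29 and 2.31, so both kept the order of HBEGF with larger changes. FGF18 was most alike to GNG11 (0.971), a G protein subunit, the antisense transcript MUC12-AS1 (0.970) and MRAP2 (0.969), a melanocortin receptor accessory protein, and 105 genes exceeded 0.9. Their changes at 24 h were -1.29, -1.34 and -1.31. With CTNNB1 siRNA, by contrast, MUC12-AS1 differed by 0.76 and GNG11 by -0.19.

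SPRY1 was most alike to TRIM31 (0.986), a ubiquitin ligase, ANK3 (0.984), an ankyrin, and CAVIN2 (0.983), a caveolar protein, and 62 genes exceeded 0.9. In DMSO at 24 h minus DMSO at 6 h these changed by 1.31, 0.75 and 2.37. With CTNNB1 siRNA TRIM31 differed by -1.04, CAVIN2 by -0.37 and ANK3 by 0.23, and these did not share 1 direction. For FGFR2 0 genes exceeded 0.9. The nearest were FLRT2-AS1 (0.848), CBR3-AS1 (0.798) and IRAK1BP1 (0.786), with drug changes of -0.31 to -0.02. On these arrays FGFR2 read 6.93 to 28.7, around the 16 added before log2, and its groups overlapped. Its correlations therefore do not describe a drug difference of FGFR2.

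**Figure D3:**
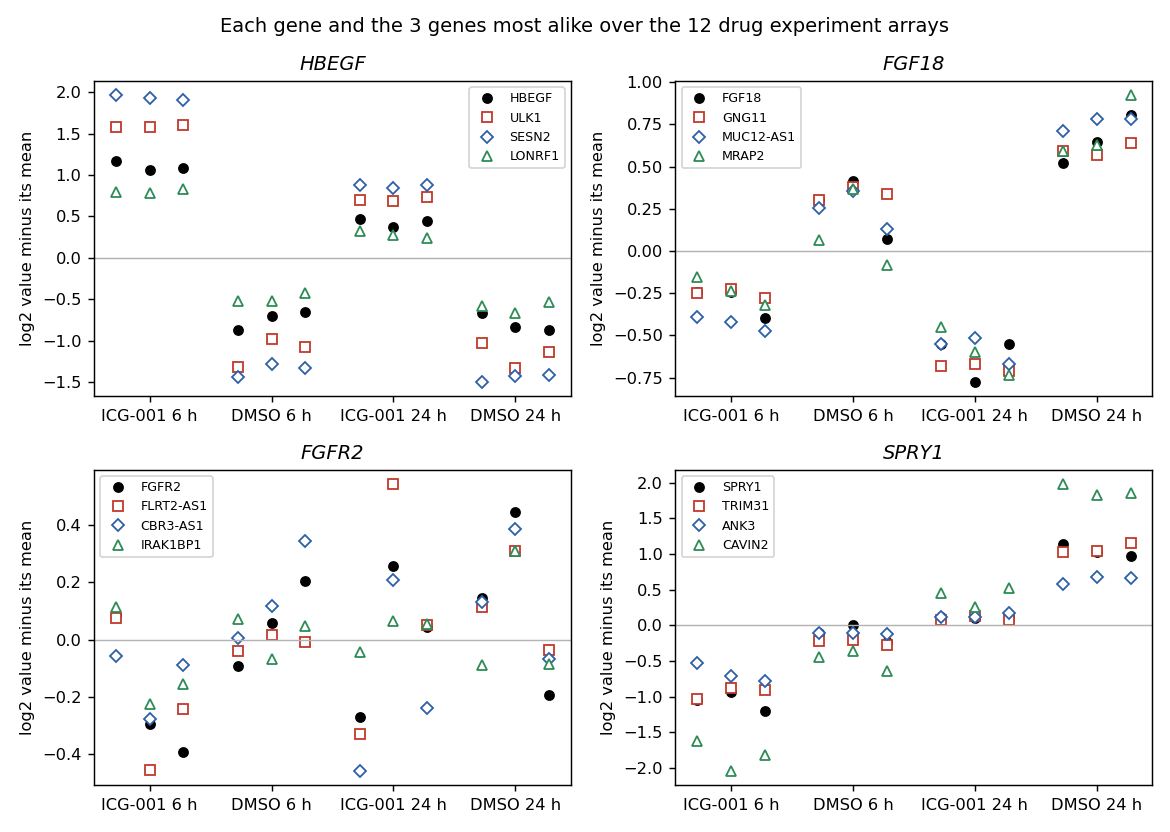
Log2 value minus its own mean over the 12 drug experiment arrays (vertical axis) for each of the 4 genes (black circles) and the 3 genes most alike to it, by group. The HBEGF set is above its mean on every ICG-001 array, the FGF18 set is below it, and the SPRY1 set is lowest with ICG-001 at 6 h. FGFR2 itself overlaps between groups, while CBR3-AS1 in its set lies lower on each ICG-001 array than on each DMSO array at 6 h.

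Other genes of these pathways were described from 8 lists holding 169 genes, of which 53 were measured. The lists were chosen with earlier results of these data known, and most genes named from them were picked for passing the threshold. Their adjusted p-values therefore describe these arrays and are not independent support. The table holds only probe sets with a coefficient of variation of at least 0.40 over the arrays, so the counts do not cover whole pathways. Of the 53 genes 7 rose and 5 fell with ICG-001 at 6 h, 7 rose and 8 fell at 24 h, and 9 rose and 5 fell with CTNNB1 siRNA (a call being an adjusted p under 0.05 over all 5250 genes in limma). Over all genes 292 rose and 432 fell, 484 rose and 592 fell, and 325 rose and 306 fell in the same comparisons. The split depended on scaling, with 406 risen and 244 fallen at 6 h and 738 risen and 385 fallen at 24 h under the deposited scaling, and 370 risen and 222 fallen at 6 h with each array centred on its median. Under the deposited scaling the 24 h median change of the 5250 genes was 0.09. Median log2 changes over the listed genes were 0.00, 0.01 and 0.07, and over all genes -0.02, -0.02 and 0.01. With the deposited scaling 7 listed genes rose and 4 fell at 6 h, 12 rose and 6 fell at 24 h, and 7 rose and 2 fell with CTNNB1 siRNA. Leaving out 1 array moved the siRNA counts, to 4 risen and 2 fallen without control siRNA replicate 2, 4 and 3 without CTNNB1 siRNA replicate 2, and 8 and 3 without control siRNA replicate 1 or CTNNB1 siRNA replicate 1. Between the DMSO times, 24 h against 6 h, 1 listed gene rose and 6 fell, while over all genes 246 rose and 207 fell. The 1 listed rise became 2 without DMSO 24 h replicate 1 and 0 without DMSO 6 h replicate 3 or DMSO 24 h replicate 3.

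Among ligands of the EGF family other than HBEGF, 4 of 10 were measured. NRG4, a neuregulin that binds ERBB4, fell at 6 h to 11.6 ± 2.32 with ICG-001, against 42.5 ± 10.8 with DMSO (SD, n = 3 each; log2 change -0.98 ± 0.20, adjusted p = 0.00157). With CTNNB1 siRNA 3 of the 4 were past the threshold, where 12% of all genes were. These 3 were EGF (-1.02 ± 0.27), NRG2 (-0.88 ± 0.23) and NRG4 (-0.86 ± 0.25), with adjusted p of 0.017, 0.0147 and 0.0285. Their mean intensities were 4.14, 7.78 and 13.0 with CTNNB1 siRNA, against 17.8, 20.5 and 27.0 with control siRNA, all low. With the deposited scaling the changes were -0.71, -0.60 and -0.57, and none of the 3 kept the call (adjusted p = 0.0748, 0.0668 and 0.255). EGF also lost it without control siRNA replicate 1 (-0.51) or CTNNB1 siRNA replicate 2 (-0.96). NRG2 lost it without control siRNA replicate 2 (-0.48) or CTNNB1 siRNA replicate 1 (-0.75). NRG4 lost it without control siRNA replicate 1 (-0.78), control siRNA replicate 2 (-0.98) or CTNNB1 siRNA replicate 2 (-0.64). NRG1 was past the threshold in none of the 3 comparisons, with changes of 0.19 ± 0.28, 0.40 ± 0.28 and 0.28 ± 0.34.

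ERBB receptors and proteins that restrain them came next, with 8 of 16 measured. ERRFI1, an inhibitor that binds EGFR family kinases, rose to 7970 ± 48.2 with ICG-001 at 6 h, against 2883 ± 61.2 with DMSO, and to 5758 ± 80.8 at 24 h, against 2709 ± 137 with DMSO (SD, n = 3 each). Its log2 changes were 0.93 ± 0.05 and 0.49 ± 0.05 (adjusted p = 4.84e-11 and 1.78e-07), or 1.46 and 1.08 with the deposited scaling. With CTNNB1 siRNA ERRFI1 changed by -0.01 ± 0.06. LRIG1, a membrane protein that promotes ERBB receptor turnover, fell at 24 h to 42.5 ± 2.86 with ICG-001, against 85.7 ± 5.15 with DMSO (-0.86 ± 0.16, adjusted p = 0.000264). It also fell with CTNNB1 siRNA, to 402 ± 18.0, against 1010 ± 299 with control siRNA (SD, n = 2 each; -1.33 ± 0.19, adjusted p = 7.57e-05). That call was kept under each left-out array and each scaling. The ubiquitin ligase CBL rose at 24 h by 0.41 ± 0.12 (adjusted p = 0.0208), a call lost without ICG-001 24 h replicate 2 (0.28) or DMSO 24 h replicate 1 (0.33).

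ERBB4, a neuregulin receptor that also binds HBEGF, was measured at very low signal. It averaged 13.8 with ICG-001 at 24 h, against 27.1 with DMSO (-0.59 ± 0.20, adjusted p = 0.0487), and 23.1 with CTNNB1 siRNA, against 7.31 with control siRNA (1.11 ± 0.25, adjusted p = 0.00577). With the deposited scaling the changes were -0.56 and 0.75 (adjusted p = 0.0562 and 0.0714), and the drug call was lost in 5 of 6 leave-one-out fits, with changes of -0.66 to -0.45. ERBB3 was past the threshold in no comparison.

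Of 21 listed FGF ligands 5 were measured. FGF2, which binds several FGF receptors, rose at 6 h to 668 ± 36.6 with ICG-001, against 397 ± 24.96 with DMSO (0.53 ± 0.09, adjusted p = 0.000133). At 24 h it fell to 326 ± 19.0 with ICG-001, against 411 ± 19.6 with DMSO (-0.57 ± 0.09, adjusted p = 4.1e-05, or -0.32 with the deposited scaling), so its direction turned between times. FGF7, FGF9, FGF12 and FGF14 were not past the threshold in any comparison, and their mean intensities were at most 21.2. Among receptors and co-receptors 6 of 19 were measured. FGFR4 fell at 24 h to 136 ± 17.9 with ICG-001, against 288 ± 28.8 with DMSO (-1.21 ± 0.14, adjusted p = 9.1e-07). With CTNNB1 siRNA FGFR4 fell to 354 ± 40.3, against 590.3 ± 167 with control siRNA (-0.73 ± 0.17, adjusted p = 0.00658). This call was lost with the probe set of highest interquartile range (-0.68). It was also lost without control siRNA replicate 2 (-0.41) or CTNNB1 siRNA replicate 1 (-0.62). FGFR1 rose with CTNNB1 siRNA by 0.31 ± 0.09 (adjusted p = 0.0383), lost without control siRNA replicate 2 (0.19) or CTNNB1 siRNA replicate 2 (0.24). FGFR3, KL and KLB, the last pair being co-receptors for hormone-like FGFs, were not past the threshold.

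Transducers between receptor and ERK had 4 measured of 25. The ERK-activated kinase RPS6KA2 rose to 293 ± 24.0 with ICG-001 at 6 h, against 193 ± 7.86 with DMSO, and to 635 ± 32.6 at 24 h, against 242 ± 18.6 with DMSO, with log2 changes of 0.51 ± 0.09 and 1.19 ± 0.09 (adjusted p = 0.000201 and 2.14e-09). Its probe sets disagreed, since the one with the higher interquartile range gave -0.07 at 6 h, -0.01 at 24 h and 0.04 with CTNNB1 siRNA. With CTNNB1 siRNA RPS6KA2 rose by 0.36 ± 0.11 (adjusted p = 0.0314), a call lost without control siRNA replicate 2 (0.31), CTNNB1 siRNA replicate 1 (0.31) or CTNNB1 siRNA replicate 2 (0.40). PTPN11, the phosphatase SHP2 that promotes RAS signalling, fell at 24 h to 49.6 ± 15.1 with ICG-001, against 78.5 ± 6.90 with DMSO (-0.64 ± 0.17, adjusted p = 0.00726).

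Feedback inhibitors of ERK other than SPRY1 had 6 measured of 18, and they did not move as a group. DUSP5, a phosphatase of nuclear ERK, fell at 6 h and 24 h by log2 changes of -0.53 ± 0.11 and -0.88 ± 0.11 (adjusted p = 0.00169 and 3.72e-06). It averaged 185 ± 19.3 with ICG-001 at 24 h, against 305 ± 42.5 with DMSO. DUSP9, another MAP kinase phosphatase, fell at 6 h (-0.68 ± 0.09, adjusted p = 6.56e-06, or -0.42 with the deposited scaling). At 24 h DUSP9 changed by -0.25 ± 0.09 (adjusted p = 0.0512), or by 0.02 with the deposited scaling. DUSP1 rose at 6 h (1.02 ± 0.33, adjusted p = 0.048) in a call lost in 5 of 6 leave-one-out fits, with changes of 0.78 to 1.06. With CTNNB1 siRNA DUSP1 rose to 161 ± 49.6, against 45.0 ± 41.0 with control siRNA (1.58 ± 0.41, adjusted p = 0.0147), and the call was lost without control siRNA replicate 2 (0.74) or CTNNB1 siRNA replicate 2 (1.33). DUSP2 rose with CTNNB1 siRNA by 0.75 ± 0.23 (adjusted p = 0.0418), which was lost without control siRNA replicate 2 (0.61), without CTNNB1 siRNA replicate 2 (0.51) and with the deposited scaling (0.52). SPRY3, the other Sprouty measured, changed by 0.22 ± 0.18, -0.19 ± 0.18 and 0.35 ± 0.22 in the 3 comparisons and passed in none.

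Transcription factors that respond to ERK had 8 measured of 32, of which 3 rose and 0 fell at each drug time. Over all genes 13.8% passed at 6 h and 20.5% at 24 h, with a split between rises and falls that depended on scaling. With the deposited scaling 3 of the 8 rose at 6 h and 4 at 24 h, and 0 fell. FOSL2, an AP-1 subunit, rose to 1440.3 ± 8.02 with ICG-001 at 6 h, against 637 ± 17.6 with DMSO, and to 1288 ± 29.1 with ICG-001 at 24 h, against 629 ± 32.8 with DMSO (0.85 ± 0.06 and 0.70 ± 0.06). ATF3, a stress-responsive factor, rose to 245 ± 22.3 with ICG-001 at 6 h, against 90.2 ± 4.10 with DMSO, and to 168 ± 17.4 with ICG-001 at 24 h, against 79.6 ± 1.03 with DMSO (1.33 ± 0.10 and 0.89 ± 0.10). MAFF, a small MAF protein, rose by 0.66 ± 0.06 and 0.44 ± 0.06, or by 1.20 and 1.05 with the deposited scaling. Adjusted p for these 3 genes at the drug times ran from 4.36e-09 to 2.1e-05. With CTNNB1 siRNA FOSL2 rose by 0.28 ± 0.08 (adjusted p = 0.0197) and MAFF by 0.32 ± 0.08 (adjusted p = 0.011). Neither call was kept with the siRNA arrays fitted alone (0.28 and 0.31). FOSL2 also lost its call without control siRNA replicate 1 (0.23) or CTNNB1 siRNA replicate 2 (0.23), and MAFF without control siRNA replicate 2 (0.16) or CTNNB1 siRNA replicate 2 (0.29). EGR1, a classical immediate early gene, changed by 0.07 ± 0.28, 0.01 ± 0.28 and -0.81 ± 0.34 and did not pass.

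Other receptor tyrosine kinases and ligands had 12 measured of 28. KIT, the receptor for stem cell factor, fell at 6 h to 56.8 ± 14.1 with ICG-001, against 127 ± 10.8 with DMSO, and at 24 h to 46.3 ± 3.76 with ICG-001, against 77.7 ± 17.6 with DMSO (-1.04 ± 0.15 and -0.64 ± 0.15, adjusted p = 4.26e-05 and 0.00406). With CTNNB1 siRNA KIT rose to 214 ± 22.0, against 59.2 ± 5.97 with control siRNA (1.32 ± 0.19, adjusted p = 7.57e-05), and kept the call under each left-out array. PDGFA, a ligand of PDGF receptors, rose at 24 h by 0.36 ± 0.07 (adjusted p = 0.00103, or 0.61 with the deposited scaling) and with CTNNB1 siRNA by 0.57 ± 0.09 (adjusted p = 0.000254). The ephrin EFNB2 was past the threshold at 6 h (-0.41 ± 0.07) and 24 h (-0.32 ± 0.07), but with the deposited scaling these changes were -0.06 and 0.06. MET, the receptor for hepatocyte growth factor, changed by -0.17 ± 0.13, -0.33 ± 0.13 and -0.08 ± 0.16 and did not pass.

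Between the DMSO times, 24 h against 6 h, PDGFA fell by a log2 change of -0.80 ± 0.07, KIT by -0.70 ± 0.15, FGFR1 by -0.50 ± 0.08 and EFNB2 by -0.35 ± 0.07 (adjusted p = 3.54e-07, 0.00459, 0.000134 and 0.00347). MET fell (-0.56 ± 0.13, adjusted p = 0.00937) and the call was lost without DMSO 6 h replicate 1 (-0.46), DMSO 6 h replicate 2 (-0.50) or DMSO 24 h replicate 3 (-0.39). CBL fell (-0.49 ± 0.12, adjusted p = 0.0122), lost without DMSO 6 h replicate 1 (-0.40) or DMSO 24 h replicate 1 (-0.42). ETV4, an ETS factor induced by FGF signalling, rose (0.37 ± 0.09, adjusted p = 0.0149), lost without DMSO 6 h replicate 1 (0.35), DMSO 6 h replicate 3 (0.34) or DMSO 24 h replicate 3 (0.30). SPRY1, by contrast, was higher at 24 h in vehicle, as given above.

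**Figure D4:**
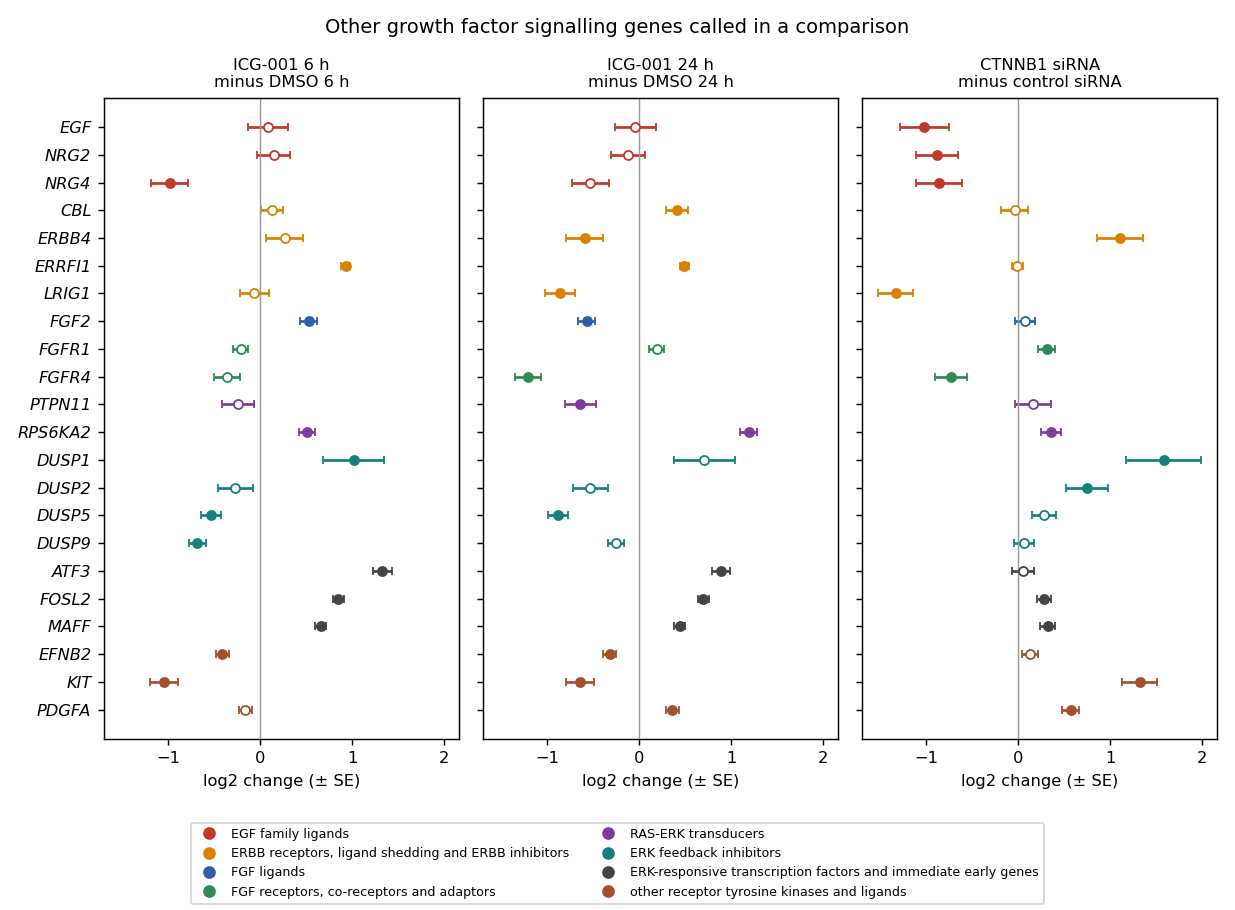
Log2 change (± SE) of each pathway gene past the threshold in at least 1 of 3 comparisons, by list, with filled points for an adjusted p under 0.05. FOSL2, ATF3 and MAFF lie right of 0 at both drug times, LRIG1 and FGFR4 lie left of 0 at 24 h and with CTNNB1 siRNA, and KIT lies left of 0 with ICG-001 and right of 0 with CTNNB1 siRNA.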

How the data were processed

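RNA was labelled with biotin and hybridised to Affymetrix arrays, per the labels' protocols. The authors deposited 1 table of linear intensity, with a value for each probe set on each array. How probes were summarised and arrays scaled, and the genome build, were not given in the sources used here. Its 9554 probe sets all had a coefficient of variation of at least 0.40. GEO's platform annotation listed 1 gene for 6442 probe sets, several for 252 and none for 2860. Array medians of log2(intensity + 16) differed by 0.64, and the 16 arrays were therefore quantile normalized. The probe set with the highest mean was kept per gene, giving 5250 genes.

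limma 3.58.1 in R 4.3.3 fitted 6 group terms with an intensity trend, with 10 residual degrees of freedom. Tests were two-sided, with Benjamini-Hochberg adjustment over all genes and a threshold of 0.05. The procedure was tested on simulated data. No array depth exists, and the number of arrays limits precision.

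The 4 genes and the 8 pathway lists were chosen with earlier results of these data known. Named besides the 4 genes were, for each list and comparison, up to 4 genes past the threshold by size of change, and the 3 genes most alike to each of the 4 by Pearson correlation among genes above the 25th percentile of mean log2 value. Some further listed genes, EGR1, SPRY3, NRG1, ERBB3, MET, FGFR3, KL, KLB, FGF7, FGF9, FGF12 and FGF14, were named after their values were seen. Alternatives covered scaling, the number added, a low-value filter, the choice of probe set, each experiment alone, the prior trend, a replicate block and each array left out. Where that left 1 siRNA array in a group, it was taken to vary like the other groups.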

Additional observations from a re-analysis of the deposited data

Results flagged for a closer look

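The log2 change with ICG-001 differed between 24 h and 6 h for 10 of the genes described, by the interaction term of the limma model. These were 2 of the 4 genes and, among the 53 listed ones, 4 with a positive and 4 with a negative difference. Over all 5250 genes 7.81% passed. All values here are the 24 h change minus the 6 h change. For HBEGF it was -0.63 and for FGF18 -0.73, both given as a description because these genes were chosen on such changes. The second FGF18 probe set (-0.70 ± 0.23) was not past the threshold. HBEGF was above DMSO at both times and FGF18 below it at both.

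Among the listed pathway genes FGF2 differed most, by -1.10 (adjusted p = 6.61e-06), and its change was positive at 6 h and negative at 24 h. RPS6KA2 differed by 0.68 (adjusted p = 0.000965) and ERRFI1 by -0.43 (adjusted p = 0.000272), each higher with ICG-001 at both times. FGFR4 differed by -0.86 (adjusted p = 0.00643) and PDGFA by 0.52 (adjusted p = 0.00284). With the probe set of highest interquartile range FGFR4 differed by -0.57, no longer past the threshold. LRIG1 differed by -0.80 (adjusted p = 0.0281), FGFR1 by 0.40 (adjusted p = 0.0243) and DUSP9 by 0.44 (adjusted p = 0.033). The last 3 calls were lost in 8, 7 and 10 of 12 leave-one-out fits, with values of -0.80 to -0.72 for LRIG1, 0.34 to 0.40 for FGFR1 and 0.32 to 0.46 for DUSP9. With its other probe set RPS6KA2 gave changes of -0.07 at 6 h and -0.01 at 24 h, and a difference of 0.05. PDGFA gave 0.38 with the deposited scaling, no longer past the threshold.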

How the results depend on the processing

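Under all alternatives run, the log2 changes of HBEGF and SPRY1 with ICG-001 and with CTNNB1 siRNA, of FGF18 with ICG-001 and of FGFR2 with CTNNB1 siRNA kept their sign. HBEGF ranged over 1.77 to 2.24 at 6 h and 1.15 to 1.54 at 24 h, and FGF18 at 24 h over -1.69 to -0.75. FGFR2 with CTNNB1 siRNA ranged over -2.00 to -0.95, all from its brighter probe set. For FGFR2 the probe set of highest interquartile range was that same one. The second FGFR2 probe set lay outside this range, at -0.85, or -0.59 with the deposited scaling. SPRY1 ranged over -1.09 to -0.69 at 6 h, -0.99 to -0.68 at 24 h and -0.89 to -0.62 with CTNNB1 siRNA. The number of genes past the threshold stayed within 1.5 times of the reported one, except with CTNNB1 siRNA, where 631 became 414 with each array centred on its median and 303 with the 4 siRNA arrays fitted alone. Fitted alone, those arrays lost the CTNNB1 siRNA calls of EGF, NRG2, NRG4, ERBB4, FGFR1, RPS6KA2, DUSP2, FOSL2 and MAFF. The share of risen genes moved with scaling, at 6 h 40.3% as reported and 62.5% with the deposited scaling, and at 24 h 45.0% and 65.7%. Median centring gave 62.5% and 49.5%. The sign turned for EFNB2 at 24 h with the deposited scaling (0.06) and for RPS6KA2 at 6 h and 24 h with the probe set of highest interquartile range (-0.07 and -0.01). The cause was not tested. Of 356 leave-one-out values of listed genes past the threshold, 289 stayed past it, 67 did not and 0 turned sign. Leaving out 1 array gave 622 to 665 genes at 6 h, 934 to 1025 at 24 h and 489 to 667 with CTNNB1 siRNA. Deviations of same-numbered arrays correlated by -0.06 to 0.09, so no effect shared by same-numbered arrays was visible. Whether such samples were handled together is not stated in the labels and cannot be read from these correlations. With the replicate block 734, 1093, 656, 467 and 426 genes passed, against 724, 1076, 631, 453 and 410. Signal near the number added before log2 limits FGFR2 in the drug experiment and the EGF family ligands.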
